A study of Mus musculus with 27 samples.

Results

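The genes followed here encode the enzymes and carriers of glycolysis and lactate release, together with genes of the cellular response to low oxygen. They were listed by name, 40 in all, and every probe set of the 3 array types that the annotation assigns to 1 of these genes only was taken. Of the 40 genes, 37 had such a probe set. Gapdh had only the array's own control probe sets, which leaves 36 genes with 68 probe sets, and 32 genes with 48 probe sets passed the filter on low signal. That filter asks for a mean rescaled signal of 200 in at least 1 group, and 25 of the 32 genes passed it in every group and 7 in some groups only. Over the whole series, 12205 genes had a tested probe set. Eno1 and Gpi1 were not analysed here, Bnip3l shared its probe set with a pseudogene, and Aldoc, Gbe1, Mif and Slc16a1 lay below the filter in every group.

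Glycolysis breaks glucose down to pyruvate, and lactate dehydrogenase turns pyruvate into lactate, which leaves the cell through monocarboxylate transporters. In low oxygen the transcription factor subunit HIF-1alpha, encoded by Hif1a, escapes hydroxylation by the prolyl hydroxylases of the Egln genes and raises transcription of many glycolytic genes. Growing cartilage has no blood vessels, and its cells are known to rely on HIF-1alpha and on glycolysis.

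The RNA came from mouse limb bud mesenchymal cells of the subridge region, the mesenchyme beneath the ridge at the tip of the limb bud, which turn into cartilage cells in culture. The 3 groups, each of 3 RNA samples numbered 1, 3 and 4, were hybridised to arrays of type A, B and C: mesenchymal cells described as multipotential, chondroprogenitors of day 1, and chondroblasts of day 3. The labels give an estimated purity of 90 to 95% with fibroblasts as the contaminating cells, name no strain, embryonic age, added agent or oxygen level, and leave unsaid whether separate cultures or animals were used. Spread between samples, on which every p-value rests, may thus be technical. The study followed gene expression over time, so each later group was set against each earlier one.

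The 18S ribosomal control probe sets set 3 samples apart, namely replicate 1 of the mesenchymal group and replicate 4 of both later groups, with 19957 to 33283 where the other 6 had 1624 to 5634. Within groups, correlations between samples across probe sets lay between 0.882 and 0.976 on array type A, 0.756 and 0.924 on type B, and 0.740 and 0.873 on type C. The arrays were scanned in batches, and on types A and B no batch held both mesenchymal and day 3 arrays. For these types no value for day 3 minus mesenchymal could be taken within a batch. Scan batch and group cannot be fully told apart in that comparison. Of 14 tested cartilage marker genes 13 rose from mesenchymal cells to day 3 and none fell. The summed rescaled signal of all 16 listed markers went from 4872 to 6047 in mesenchymal samples to 73393 to 95543 at day 3. This sum includes Col2a1 and Sox5, which lay below the filter. Most of it at day 3 came from Cnmd and Cytl1, with day 3 means of 35057 and 20036. Markers of other cells moved with the groups too. The summed signal of 10 erythroid marker genes was 117690 to 256100 in mesenchymal samples, 9586 to 117990 at day 1 and 6934 to 20121 at day 3, where 7 of 8 tested had fallen. The sum over 12 endothelial markers was 5274 to 6111 in mesenchymal samples, 1884 to 2371 at day 1 and 3075 to 3394 at day 3. Among the 9 endothelial markers tested, Eng alone rose between day 1 and day 3. The sum over 12 fibroblast markers went from 6820 to 7854 in mesenchymal samples to 35254 to 39868 at day 3. Of 9 tested macrophage markers 4 rose from mesenchymal cells to day 3. The part of these cells in the results was not tested. In bulk RNA, fewer cells of a type and less RNA per cell cannot be told apart.

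Between mesenchymal cells and day 1, Ldhb rose and the genes Pkm and Ndrg1 fell among the 32 tested. This makes 1 rise, beside 4.56% of all tested genes, and 2 falls, beside 1.37%. Between day 1 and day 3, 4 genes of glycolysis and lactate handling rose, Ldha, Slc16a3, Pgk1 and Aldoa, beside 1.69% of all tested genes. Ldhb alone fell, beside 0.631%. Between mesenchymal cells and day 3, Slc16a3 alone rose, beside 8.68% of all tested genes, and no member fell, beside 4.8%. All calls are limma's at an adjusted p below 0.05. An unadjusted p below 0.05 was found for 11 of the 32 genes (34.4%) for day 1 minus mesenchymal, beside 21.7% of all tested genes. It was found for 8 genes (25.0%) in each of the other comparisons, beside 12.7% of all tested genes for day 3 minus day 1 and 29.2% for day 3 minus mesenchymal. The median log2 change of the 32 genes was -0.03 for day 1 minus mesenchymal, 0.32 for day 3 minus day 1 and 0.30 for day 3 minus mesenchymal, where the medians of all tested genes were -0.01, -0.05 and -0.05. For day 3 minus day 1, 23 of the 32 genes (71.9%) had a positive value, against 45.3% of all tested genes. The 3 comparisons share samples with each other. All calls but those of Ldhb and Pkm for day 1 minus mesenchymal depend on single samples, as given with each gene. Without the 3 samples of high 18S signal, which leaves 2 against 2, no member passed for day 3 minus day 1 (values of Ldha 0.96 and Slc16a3 1.47). None passed in that comparison under median scaling or with limma's eBayes run without a trend either.

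**Figure D1:**
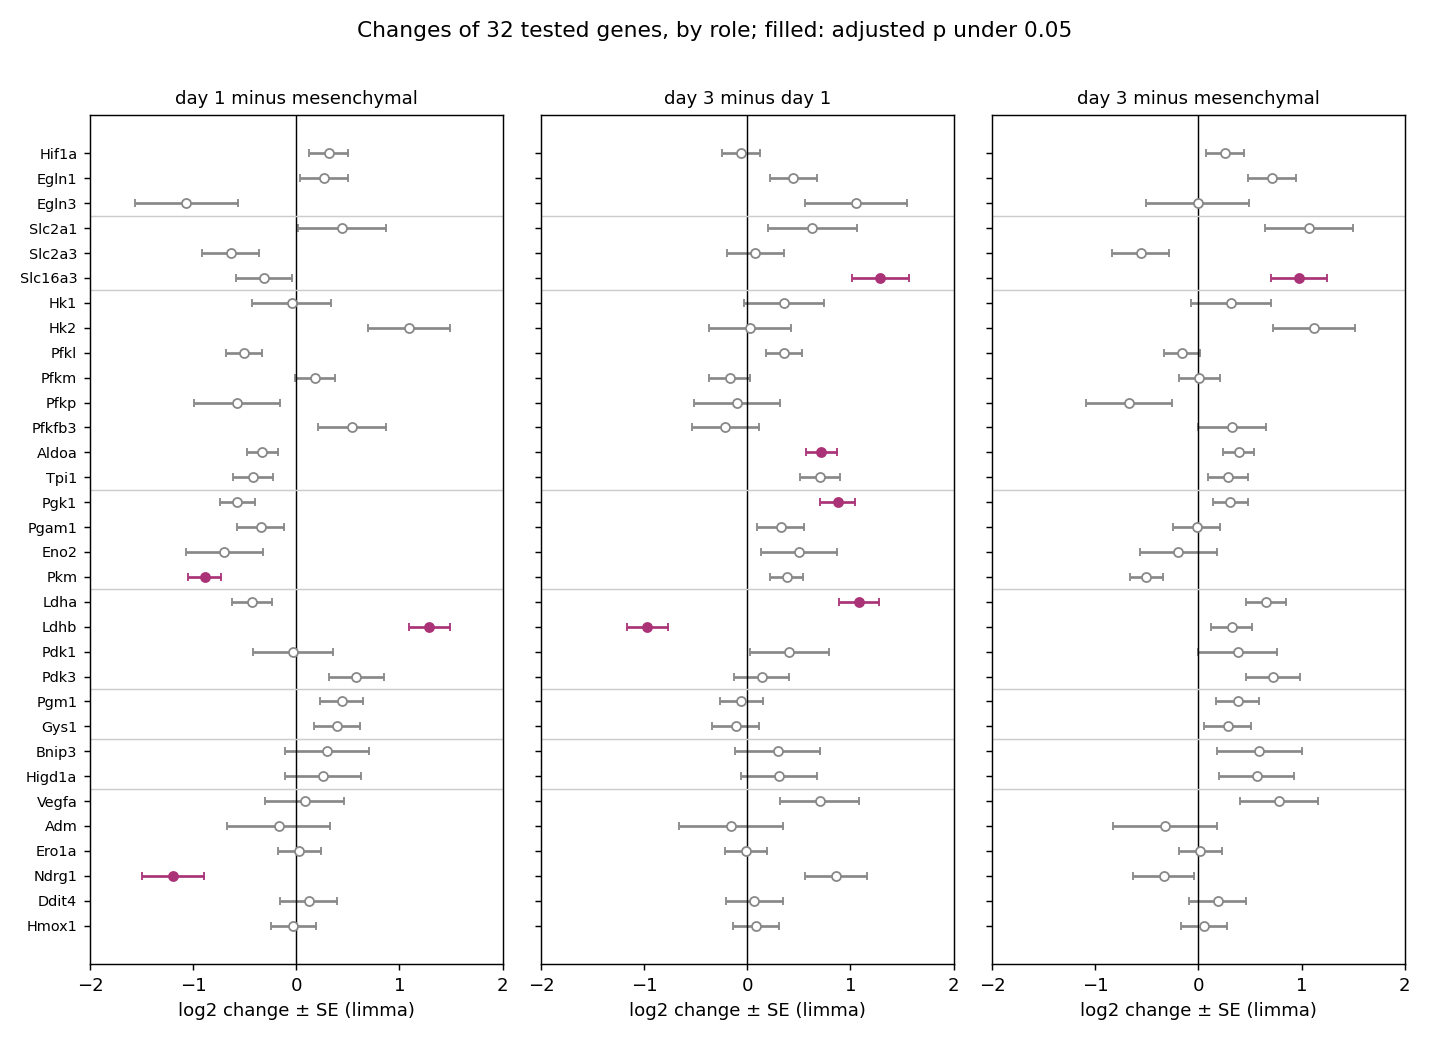
Log2 change with limma's standard error (x axis, 3 samples per group) of the 32 tested genes (y axis, grouped by role with grey lines) in the 3 comparisons. Filled points passed an adjusted p below 0.05: Ldhb, Pkm and Ndrg1 at day 1, 5 genes between day 1 and day 3, and Slc16a3 at day 3 against mesenchymal cells.

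The promoters of 4 of these genes are printed, namely 3 of the 4 that rose between day 1 and day 3, and Ldhb, which fell. They are RefSeq sequences of the build GRCm38.p6, 250 bases before to 50 after the first listed start, written 5′ to 3′ on the gene's strand. Capitals mark the core of the hypoxia response element, ACGTG or GCGTG, on either strand. On the other strand it reads CACGT or CACGC, and where ACGTG and CACGT overlap as CACGTG, which is also an E-box of other factors, they count as 1 match. Ldha lies at chr7:46845554-46845853 (plus strand) with 5 matches, Pgk1 at chrX:106186850-106187149 (plus) with 2, Slc16a3 at chr11:120948817-120949116 (plus) with 2, and Ldhb at chr6:142507908-142508207 (minus) with 1.
Ldha: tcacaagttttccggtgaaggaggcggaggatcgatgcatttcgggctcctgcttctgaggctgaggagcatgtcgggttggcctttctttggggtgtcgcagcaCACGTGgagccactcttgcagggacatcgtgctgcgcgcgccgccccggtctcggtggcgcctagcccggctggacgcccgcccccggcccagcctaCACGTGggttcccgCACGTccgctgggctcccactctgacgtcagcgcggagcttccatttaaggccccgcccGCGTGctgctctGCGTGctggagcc
Pgk1: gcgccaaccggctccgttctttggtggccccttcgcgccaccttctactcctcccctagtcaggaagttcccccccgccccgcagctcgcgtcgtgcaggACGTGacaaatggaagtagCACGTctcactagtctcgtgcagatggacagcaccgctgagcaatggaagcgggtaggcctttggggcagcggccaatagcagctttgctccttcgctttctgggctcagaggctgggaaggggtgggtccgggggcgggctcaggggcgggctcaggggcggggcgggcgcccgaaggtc
Slc16a3: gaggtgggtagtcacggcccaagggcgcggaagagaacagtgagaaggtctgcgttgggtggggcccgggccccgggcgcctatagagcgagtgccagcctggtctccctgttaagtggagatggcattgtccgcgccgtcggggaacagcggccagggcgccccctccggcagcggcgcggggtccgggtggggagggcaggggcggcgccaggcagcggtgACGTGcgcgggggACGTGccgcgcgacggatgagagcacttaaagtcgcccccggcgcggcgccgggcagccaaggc
Ldhb: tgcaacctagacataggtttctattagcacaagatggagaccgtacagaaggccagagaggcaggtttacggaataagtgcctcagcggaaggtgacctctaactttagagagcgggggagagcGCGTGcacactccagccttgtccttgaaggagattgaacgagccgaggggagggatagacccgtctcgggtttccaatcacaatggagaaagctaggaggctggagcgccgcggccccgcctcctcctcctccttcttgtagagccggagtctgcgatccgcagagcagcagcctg
The first start of Aldoa, which also rose and is not printed, held no match, and its starts 2 and 3 held 1 each. The first start of Pkm held none either, and its second start held 2. Among members with no call, Pfkp, Bnip3 and Pdk3 held 4 matches each at the first start, and Tpi1, Gys1 and Eno2 held none. Promoters were listed for 36 of the 40 genes, and 27 of these (75%) held a match at the first start, against 11836 of 27025 genes (43.8%). The median GC content of these windows was 63.5% for the 36 genes and 52.7% for all genes, and its part in the share was not tested. A match describes letters in the sequence and is no measurement of binding.

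Ldha, which encodes the lactate dehydrogenase subunit that favours making lactate, rose 2.12-fold between day 1 and day 3. Values are given for replicates 1, 3 and 4 in this order, as rescaled signals on the array type that held the probe set, and folds are on the scale of the signal plus 50. Its signals were 7207, 7837 and 9503 in mesenchymal samples, 6769, 6794 and 4752 at day 1, and 11033, 15974 and 12005 at day 3. Every day 3 sample lay above every other sample, day 3 replicate 3 was the highest, and the mesenchymal samples lay above those of day 1. The log2 change for day 3 minus day 1 was 1.09 ± 0.19 (SE, n = 3 per group, limma adjusted p = 0.015). Within the scan batch that held 2 day 1 and 3 day 3 samples it was 1.17. For day 3 minus mesenchymal it was 0.66 ± 0.19 (limma adjusted p = 0.0513), and for day 1 minus mesenchymal -0.43 ± 0.19 (limma adjusted p = 0.263). The value for day 3 minus mesenchymal passed in 5 alternatives, namely quantile normalization (0.78, limma adjusted p = 0.0106), a minimum signal of 400 (0.0414), a pseudocount of 200 (0.0492), and without mesenchymal replicate 4 (0.0377) or day 1 replicate 4 (0.0359). The call between day 1 and day 3 was lost without day 1 replicate 4 (0.92, limma adjusted p = 0.0605) or without day 3 replicate 3 (0.93, limma adjusted p = 0.0822).

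Ldhb, which encodes the subunit that favours turning lactate back into pyruvate, was highest at day 1. It rose 2.45-fold from mesenchymal cells to day 1 and fell 1.96-fold from day 1 to day 3. Its signals were 1434, 1097 and 907.5 in mesenchymal samples, 2798, 2351 and 3442 at day 1, and 1562, 1308 and 1403 at day 3. All day 1 samples lay above all others, and the mesenchymal and day 3 samples overlapped. The log2 change was 1.29 ± 0.20 for day 1 minus mesenchymal (limma adjusted p = 0.00239) and -0.97 ± 0.20 for day 3 minus day 1 (limma adjusted p = 0.0296). For day 3 minus mesenchymal it was 0.32 ± 0.20 (limma adjusted p = 0.355). Within scan batches the first value was 1.13 (2 mesenchymal samples and 1 day 1 sample) and the second -0.98 (2 and 3 samples). The rise at day 1 was called when any 1 sample was left out, but not with the scan batch as a block (limma adjusted p = 0.0736). The later fall was lost without day 1 replicate 1 (limma adjusted p = 0.107) or 4 (0.117) and without day 3 replicate 1 (0.0871), 3 (0.141) or 4 (0.0825). It was also lost with the scan batch (limma adjusted p = 0.0593) or the replicate number (0.0666) as a block. A second Ldhb probe set lay below the filter in every group.

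**Figure D2:**
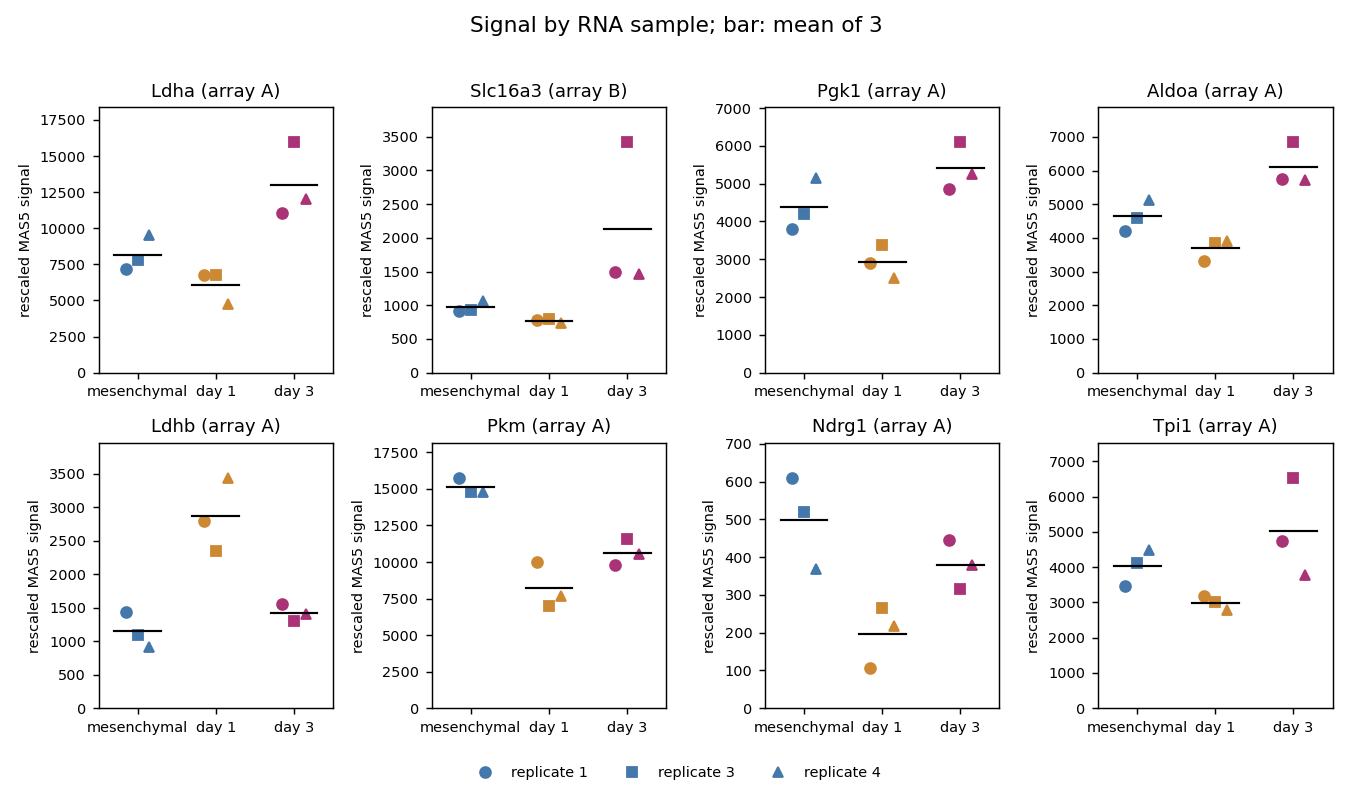
Rescaled signal (y axis, linear from 0) of the 7 called genes and Tpi1 in each RNA sample by group (x axis). Bars are means of 3 samples and symbols mark replicates 1, 3 and 4; all 3 day 1 samples of Ldhb lie above the other 6, and day 3 replicate 3 is the highest sample for Ldha, Slc16a3, Pgk1, Aldoa and Tpi1.

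Slc16a3, which encodes the lactate exporter MCT4, was higher at day 3 than in both earlier groups, 2.45-fold against day 1 and 1.97-fold against mesenchymal cells. Its signals were 916.2, 933.6 and 1069 in mesenchymal samples, 775.6, 800.7 and 738.3 at day 1, and 1494, 3421 and 1463 at day 3. The groups did not overlap, and day 3 replicate 3 stood well above the other day 3 samples. The log2 change was 1.29 ± 0.27 for day 3 minus day 1 (limma adjusted p = 0.0266) and 0.98 ± 0.27 for day 3 minus mesenchymal (limma adjusted p = 0.0343). Without day 3 replicate 3 these values were 0.90 and 0.58, and neither passed (limma adjusted p = 0.0939 and 0.145). The first call was also lost without day 1 replicate 1 (limma adjusted p = 0.098), 3 (0.0964) or 4 (0.0964). The second was also lost without mesenchymal replicate 1 (limma adjusted p = 0.0781) or 3 (0.094), or without day 1 replicate 3 (0.0515). On array type B all day 3 arrays were scanned in a batch of their own, so scan batch and day 3 cannot be told apart for this gene. For day 1 minus mesenchymal the value was -0.31 ± 0.27 (limma adjusted p = 0.591).

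The glucose transporter genes did not pass in any comparison. Slc2a1, which encodes GLUT1, had signals of 104.6, 152.2 and 443.4 in mesenchymal samples, 378.5, 317.1 and 195.2 at day 1, and 609.8, 612.2 and 278.2 at day 3. Mesenchymal replicate 4 lay far above the other mesenchymal samples, and all groups overlapped. The log2 change for day 3 minus mesenchymal was 1.07 ± 0.43 (limma adjusted p = 0.142). Without mesenchymal replicate 4, which was scanned apart from all other samples, it was 1.57 and passed (limma adjusted p = 0.0199). Slc2a3, which encodes GLUT3, had values of -0.64 ± 0.28 for day 1 minus mesenchymal (limma adjusted p = 0.243) and -0.56 ± 0.28 for day 3 minus mesenchymal (0.242), with a second tested probe set at -0.98 and -0.67. That second set is of the _f type, whose probes can match related transcripts.

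Of 8 tested genes of upper glycolysis, Aldoa rose between day 1 and day 3 and no other call was made. Aldoa encodes an aldolase, which splits fructose 1,6-bisphosphate. Its signals were 4208, 4602 and 5136 in mesenchymal samples, 3300, 3848 and 3918 at day 1, and 5762, 6846 and 5709 at day 3. The 3 groups did not overlap, with day 1 lowest and day 3 highest. The log2 change for day 3 minus day 1 was 0.72 ± 0.15, a 1.65-fold rise (limma adjusted p = 0.0318), and within a scan batch (2 and 3 samples) it was 0.64. The call was lost without any 1 of the day 1 samples (replicate 1, limma adjusted p = 0.154; replicate 3, 0.1; replicate 4, 0.0691) or day 3 samples (replicate 1, 0.106; replicate 3, 0.167; replicate 4, 0.0568), and with the scan batch (0.108) or the replicate number (0.0676) as a block. The other Aldoa probe set had 0.61 ± 0.22 (limma adjusted p = 0.267), and for day 3 minus mesenchymal the probe sets had 0.39 and -0.08. Both are of the _f type, whose probes can match related transcripts.

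Tpi1, which encodes triosephosphate isomerase, had signals of 3481, 4132 and 4474 in mesenchymal samples, 3184, 3001 and 2787 at day 1, and 4743, 6544 and 3787 at day 3. The day 1 samples lay below all others, and the mesenchymal and day 3 samples overlapped. The log2 change was 0.70 ± 0.19 for day 3 minus day 1 (limma adjusted p = 0.117) and -0.42 ± 0.19 for day 1 minus mesenchymal (0.272). Without day 3 replicate 4 the first was 0.89 and passed (limma adjusted p = 0.0475).

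The hexokinases, which trap glucose in the cell as glucose 6-phosphate, varied widely within the mesenchymal group. Hk2 had signals of 90.0, 106.8 and 295.9 in mesenchymal samples, 412.4, 377.2 and 324.7 at day 1, and 520.4, 512.2 and 191.8 at day 3. The day 1 samples lay above all mesenchymal samples, and day 3 replicate 4 fell among the mesenchymal ones. The log2 change was 1.09 ± 0.40 for day 1 minus mesenchymal (limma adjusted p = 0.159) and 1.12 ± 0.40 for day 3 minus mesenchymal (0.101). Both passed without mesenchymal replicate 4 (limma adjusted p = 0.0403 for the first and, at a value of 1.52, 0.0221 for the second), and the second also without day 3 replicate 4 (1.53, 0.0253). The mesenchymal mean lay below the filter, so Hk2 was tested through the later groups, where it is higher, and these values depend on the pseudocount.

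Hk1, whose signals ran from 5501 in day 1 replicate 4 to 17221 in mesenchymal replicate 4, had no call, with -0.05 ± 0.39 for day 1 minus mesenchymal and 0.31 ± 0.39 for day 3 minus mesenchymal (limma adjusted p = 0.967 and 0.675). Among the phosphofructokinase genes, whose enzyme catalyses the committed step of glycolysis, Pfkl had -0.51 ± 0.17 for day 1 minus mesenchymal (limma adjusted p = 0.133) and its day 1 samples lay below the mesenchymal ones. Pfkm ranged over the 3 comparisons from -0.17 to 0.18 and Pfkp, which reached the filter in mesenchymal cells only, from -0.67 to -0.10. Pfkfb3, which encodes an enzyme making the phosphofructokinase activator fructose 2,6-bisphosphate, had 0.54 ± 0.33, -0.21 ± 0.33 and 0.33 ± 0.33 in the order day 1 minus mesenchymal, day 3 minus day 1 and day 3 minus mesenchymal (limma adjusted p = 0.42, 0.892 and 0.591).

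**Figure D3:**
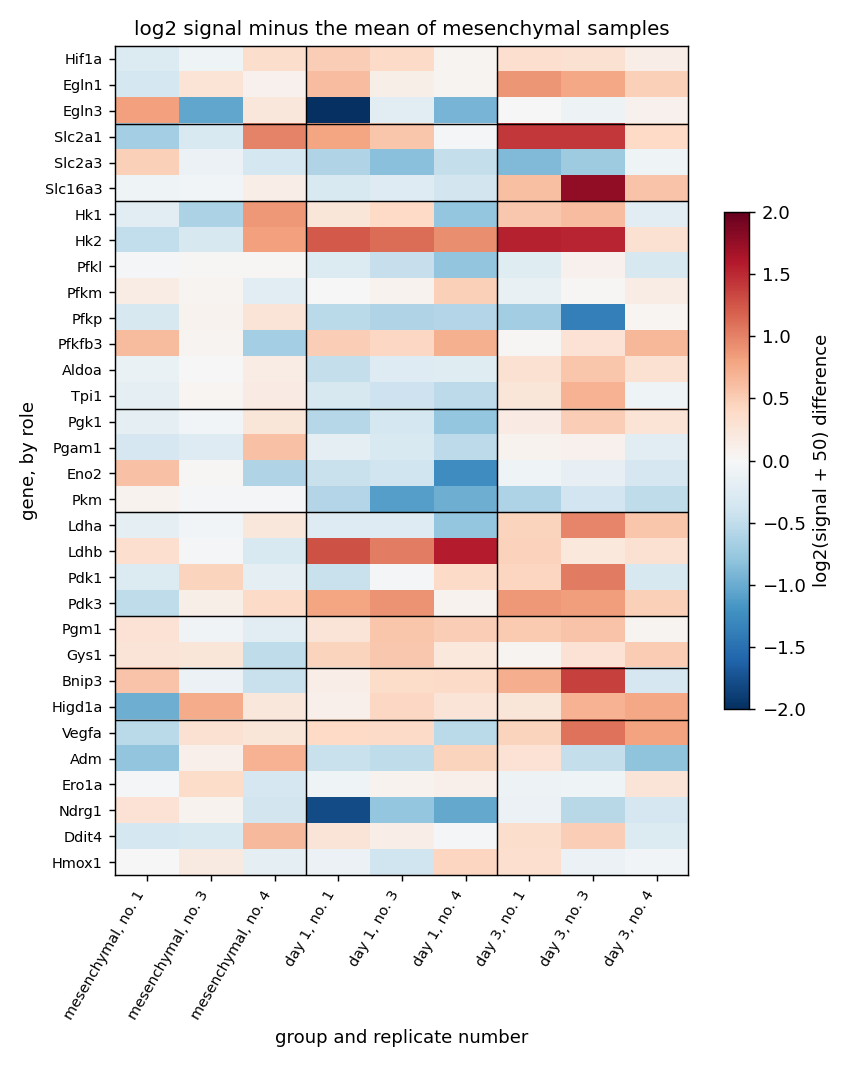
Log2 signal of each sample minus the mean of the mesenchymal samples (colour, from -2 to 2) for the 32 tested genes (rows, grouped by role) in the 9 samples (columns). Ldhb is reddest in the day 1 columns, Slc16a3 in day 3 replicate 3, and Slc2a1, Hk1 and Hk2 are redder in mesenchymal replicate 4 than in mesenchymal replicates 1 and 3.

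In lower glycolysis, the 4 genes tested had values of -0.34 to -0.89 for day 1 minus mesenchymal and of 0.32 to 0.88 for day 3 minus day 1, and these comparisons share the day 1 samples. Pgk1, which encodes phosphoglycerate kinase, the first enzyme of the pathway to yield ATP, rose 1.84-fold between day 1 and day 3. Its signals were 3804, 4193 and 5151 in mesenchymal samples, 2896, 3384 and 2512 at day 1, and 4867, 6102 and 5269 at day 3. The day 1 samples lay below all others, and the mesenchymal and day 3 samples overlapped. The log2 change was 0.88 ± 0.17 for day 3 minus day 1 (limma adjusted p = 0.0218), and within a scan batch (2 and 3 samples) it was 0.87. It was -0.57 ± 0.17 for day 1 minus mesenchymal (limma adjusted p = 0.0837, and 0.0419 with quantile normalization, where it passed) and 0.31 ± 0.17 for day 3 minus mesenchymal (0.299). The call was lost without day 1 replicate 1 (limma adjusted p = 0.0873) or 4 (0.0951), without day 3 replicate 1 (0.064), 3 (0.125) or 4 (0.0568), and with the scan batch (0.0537) or the replicate number (0.0565) as a block. A second Pgk1 probe set, on array type B and of the _f type, had signals of 44.7 to 340.2 and 0.30 ± 0.54 for day 3 minus day 1 (limma adjusted p = 0.908).

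Pkm, which encodes the pyruvate kinases of muscle and of most growing cells, fell 1.85-fold by day 1. Its signals were 15778, 14760 and 14782 in mesenchymal samples, 10033, 6993 and 7663 at day 1, and 9814, 11544 and 10573 at day 3. The mesenchymal samples lay above all others, and the day 1 and day 3 samples overlapped. The log2 change for day 1 minus mesenchymal was -0.89 ± 0.16 (limma adjusted p = 0.00656), and it was called when any 1 sample was left out. Within a scan batch that held 2 mesenchymal samples and 1 day 1 sample it was -0.60, and with the scan batch as a block the call was lost (limma adjusted p = 0.189). It was also lost under median scaling (limma adjusted p = 0.0701) and without the 3 samples of high 18S signal (0.0536). A second probe set on array type A fell too, by 0.90 on the log2 scale (limma adjusted p = 0.00972), and another, on type C, had -0.79 ± 0.24 (0.0734). For day 3 minus mesenchymal the 3 probe sets had -0.51, -0.63 and -0.77, of which only the second passed (limma adjusted p = 0.0646, 0.037 and 0.0504). The annotation used here gives no splice form for these probe sets.

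Pgam1, which encodes phosphoglycerate mutase, and Eno2, the enolase of neurons, had no call. Pgam1 had signals of 1852 to 2849 in 8 samples and 4080 in mesenchymal replicate 4, and its log2 values were -0.34 ± 0.23, 0.32 ± 0.23 and -0.02 ± 0.23 in the order given for Pfkfb3. Eno2 had -0.70 ± 0.37, 0.50 ± 0.37 and -0.19 ± 0.37, and its signals, from 54.7 to 318.8, passed the filter through the mesenchymal group only.

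Gapdh, which encodes glyceraldehyde 3-phosphate dehydrogenase and is often used as a reference gene, was read by 9 control probe sets of the coding strand, 3 for the middle and the ends of the transcript on each array type. The middle one on array type A had signals of 41714, 34252 and 34801 in mesenchymal samples, 27611, 26470 and 29991 at day 1, and 22131, 26589 and 28197 at day 3. The mesenchymal samples lay above all others. When these sets were tested with the others, a step added after seeing the data, the 9 values were -0.72 to -0.33 for day 1 minus mesenchymal, -0.21 to 0.03 for day 3 minus day 1 and -0.69 to -0.38 for day 3 minus mesenchymal. For day 3 minus mesenchymal 1 of the 9 fell, the middle one on type C (-0.69 ± 0.21, limma adjusted p = 0.0498), and in the other comparisons none passed (lowest limma adjusted p = 0.112 and 0.818). Under quantile normalization the sign flipped for some sets, with -0.21 to 0.12 for day 1 minus mesenchymal and -0.36 to 0.04 for day 3 minus mesenchymal. That step gives equal ranks the same signal on every array. For sets as bright as these, with group means up to 187140, it draws the groups together by design. It thus cannot decide whether Gapdh differed. Under median scaling the values were -0.58 to -0.21 and -0.66 to -0.20. A probe set that Gapdh shares with 2 pseudogenes in the annotation fell at day 1 (-0.72, limma adjusted p = 0.0277) and at day 3 (-0.59, 0.0432) against mesenchymal cells, and both calls were lost under many alternatives. They were lost with the scan batch as a block (-0.46 and -0.25, limma adjusted p = 0.367 and 0.708), under median scaling (0.216 and 0.373) and under quantile normalization (0.0562 and 0.0973). The call at day 1 was also lost without mesenchymal replicate 1 (limma adjusted p = 0.0755) or 4 (0.0758), day 1 replicate 1 (0.0573), 3 (0.101) or 4 (0.0899), or day 3 replicate 1 (0.0527). That at day 3 was lost without mesenchymal replicate 1 (limma adjusted p = 0.0996) or 4 (0.109), day 1 replicate 1 (0.0563) or 3 (0.0668), or day 3 replicate 1 (0.123), 3 (0.0671) or 4 (0.112). No other shared Gapdh probe set passed.

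**Figure D4:**
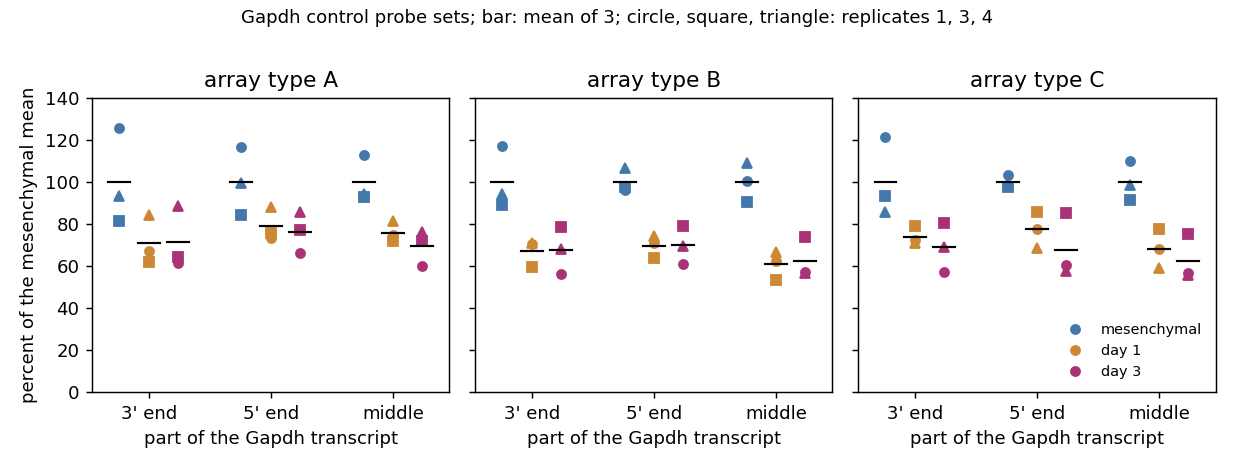
Signal of the 9 coding-strand Gapdh control probe sets as percent of each set's mesenchymal mean (y axis, from 0), by part of the transcript (x axis) and array type (panels). Bars are means of 3 samples and symbols mark replicates 1, 3 and 4; the day 1 and day 3 means lie below the mesenchymal mean for every set on this scaling.

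Pyruvate dehydrogenase kinases keep pyruvate out of the mitochondrial cycle by switching off pyruvate dehydrogenase. Pdk3 had signals of 666.0, 1052 and 1267 in mesenchymal samples, 1701, 1837 and 1010 at day 1, and 1800, 1749 and 1353 at day 3. The day 3 samples lay above all mesenchymal ones, and its log2 value for day 3 minus mesenchymal was 0.72 ± 0.26 (limma adjusted p = 0.11). Pdk1, a well known target of HIF-1alpha that reached the filter at day 3 only, had signals of 107.8 to 388.6 and 0.38 ± 0.39 in the same comparison (limma adjusted p = 0.6).

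None of the 3 genes of oxygen sensing passed. Hif1a had signals of 2487, 2828 and 3855 in mesenchymal samples, 4244, 3954 and 3132 at day 1, and 3795, 3729 and 3285 at day 3. The groups overlapped, and the log2 values were 0.31 ± 0.19, -0.06 ± 0.19 and 0.26 ± 0.19 in the order given for Pfkfb3 (limma adjusted p = 0.406, 0.954 and 0.44). Its 95% interval for day 3 minus mesenchymal ran from -0.15 to 0.66, and a second probe set had 0.30. Both Hif1a probe sets are of the _f type and had close signals in every sample, so the second is hardly a separate reading. HIF-1alpha is controlled mainly through the stability of the protein, which arrays do not measure.

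Egln1, which encodes the main prolyl hydroxylase of HIF-1alpha, had signals of 395.5, 637.0 and 556.2 in mesenchymal samples, 829.3, 570.3 and 543.2 at day 1, and 999.6, 930.0 and 747.5 at day 3. All day 3 samples lay above all mesenchymal samples, with 0.71 ± 0.23 for day 3 minus mesenchymal (limma adjusted p = 0.07). Its other tested probe sets, on array type B, had -0.02 and 0.16 in that comparison. Egln3, a hydroxylase gene that HIF itself induces, had signals of 65.1 to 357.4 at day 1 and 393.6 to 453.3 at day 3, which did not overlap, and 1.06 ± 0.50 for day 3 minus day 1 (limma adjusted p = 0.468). Its second probe set, on array type C, had 0.28 ± 0.48 there.

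**Figure D5:**
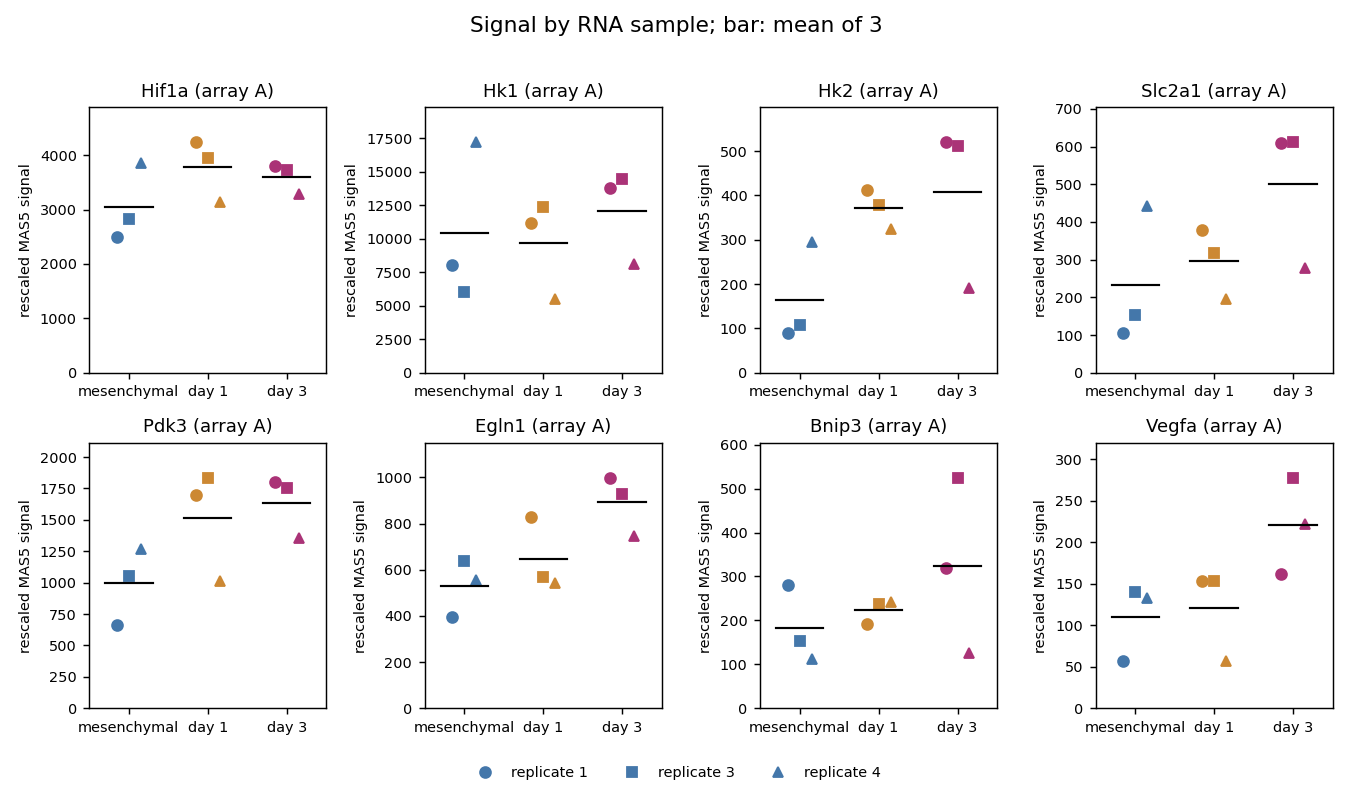
Rescaled signal (y axis, linear from 0) of 8 genes with no call in each RNA sample by group (x axis). Bars are means of 3 samples and symbols mark replicates 1, 3 and 4; replicate 4, the triangle, is high in the mesenchymal group and the lowest of its group at day 1 and day 3 for Hif1a, Hk1, Hk2, Slc2a1 and Pdk3.

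The genes of glycogen handling and of mitochondria had no call. Pgm1, which encodes a phosphoglucomutase that links glucose 6-phosphate to glycogen, had 0.44 ± 0.21 for day 1 minus mesenchymal and 0.38 ± 0.21 for day 3 minus mesenchymal (limma adjusted p = 0.284 and 0.29). Gys1, the glycogen synthase gene, had 0.40 ± 0.23 and 0.28 ± 0.23. Bnip3, which encodes a mitophagy receptor, had signals of 281.6, 153.9 and 112.4 in mesenchymal samples and 318.8, 525.2 and 126.5 at day 3, and 0.59 ± 0.41 between these overlapping groups (limma adjusted p = 0.417). Without the 3 samples of high 18S signal its value was 1.34 and passed (limma adjusted p = 0.03). Its mesenchymal mean lay below the filter, so it was tested through the later groups, where it is higher, and the value depends on the pseudocount. Higd1a, which encodes a hypoxia-induced protein of mitochondria, had 0.57 ± 0.37 for day 3 minus mesenchymal (limma adjusted p = 0.378). Its probe set on array type B differed more, with means of 342.1 in mesenchymal samples and 830.9 at day 3. These groups overlapped, and it did not pass either (limma adjusted p = 0.202). The probe set shared by Bnip3l, a mitophagy receptor gene that matters in maturing red cells, and its pseudogene had -0.27 ± 0.25 for day 3 minus mesenchymal (limma adjusted p = 0.561).

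Of 6 tested genes of the wider hypoxia response, Ndrg1 fell at day 1 and no other call was made. Ndrg1, a stress-responsive gene induced in low oxygen, had signals of 610.9, 518.7 and 368.6 in mesenchymal samples, 105.5, 265.3 and 216.5 at day 1, and 445.5, 316.1 and 379.5 at day 3. The day 1 samples lay below all others, and the mesenchymal and day 3 samples overlapped. The log2 change for day 1 minus mesenchymal was -1.20 ± 0.30 (limma adjusted p = 0.0402), and for day 3 minus day 1 it was 0.86 ± 0.30 (0.26). With the scan batch as a block the first was -1.98 (limma adjusted p = 0.0138), which is also its value within the batch of 2 mesenchymal samples and 1 day 1 sample. A second probe set had -1.20 ± 0.34 and did not pass (limma adjusted p = 0.0713). The call was lost without mesenchymal replicate 1 (limma adjusted p = 0.128) or 3 (0.106), day 1 replicate 1 (0.153) or 4 (0.0581), or day 3 replicate 1 (0.0643) or 3 (0.0601), and without the 3 samples of high 18S signal (0.131). The day 1 mean lay below the filter, so Ndrg1 was tested through the other groups, where it is higher, and the value depends on the pseudocount.

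Vegfa, which encodes the vascular growth factor VEGF-A, had signals of 56.8, 140.3 and 132.7 in mesenchymal samples, 153.7, 152.7 and 56.5 at day 1, and 161.8, 277.9 and 221.8 at day 3. The day 3 samples lay above all others, but only the day 3 mean reached the filter, so the probe set was tested through the group where it is high. The log2 values were 0.70 ± 0.38 for day 3 minus day 1 (limma adjusted p = 0.573) and 0.78 ± 0.38 for day 3 minus mesenchymal (0.232). Probe sets on array types B and C had 0.49 and -0.60 in the latter, so the 3 probe sets disagree in sign. Adm, which encodes the vasodilator adrenomedullin, Ero1a, an oxidase of protein folding, Ddit4, an inhibitor of mTORC1, and Hmox1, the inducible haem oxygenase, had values between -0.33 and 0.19 over the 3 comparisons in the probe set that represents each gene.

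The 18S signal moved with several of these genes. In 10 of the 32 genes the sample of highest 18S signal was the lowest of its group in all 3 groups, beside 13.5% of all tested genes. These 10 were Ddit4, Egln1, Hif1a, Hk2, Pdk3, Pfkl, Pgam1, Slc16a3, Slc2a1 and Tpi1. It was the highest in all 3 groups in 3 genes, Pfkfb3, Pfkm and Slc2a3, beside 11.3% of all tested genes. Another reading of RNA quality, the ratio of 3′ end to 5′ end signal of the actin controls, did not set all 3 samples apart. It was 1.28 in mesenchymal replicate 1, 1.12 in day 1 replicate 4 and 1.30 in day 3 replicate 4, against 1.07 to 1.14 elsewhere. The part of RNA quality in these values was not tested. Without these 3 samples the value for day 3 minus mesenchymal was 1.28 for Hk2, 1.07 for Slc2a1, 0.65 for Egln1 and 1.14 for Slc16a3, of which the last passed (limma adjusted p = 0.0551, 0.119, 0.106 and 0.0453).

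Genes around these pathways were counted from other lists. Of 13 tested genes of the HIF pathway, such as its partner subunits and the VHL complex, none passed in any comparison. Of 18 tested further hypoxia-inducible genes, 1 rose and 1 fell at day 1, beside 4.56% and 1.37% of all tested genes. Between day 1 and day 3, 4 rose, beside 1.69%, and none fell. Between mesenchymal cells and day 3, 6 rose and 2 fell, beside 8.68% and 4.8%. The 3 smallest adjusted p for day 3 minus mesenchymal were those of Plod1, P4ha2 and P4ha1. Plod1, a lysyl hydroxylase gene, went from a mean signal of 719.3 in mesenchymal cells to 2207 at day 1 and 3699 at day 3 (day 3 minus mesenchymal 2.30 ± 0.21, limma adjusted p = 5.31e-06). P4ha2, a collagen prolyl hydroxylase gene, went from 424.8 to 758.9 and 2109 (2.28 ± 0.27, limma adjusted p = 0.00018). P4ha1, of the same enzyme family, went from 343.2 to 317.6 and 1513 (2.08 ± 0.33, limma adjusted p = 0.00143). The smallest adjusted p for day 3 minus day 1 was that of Igfbp3, which encodes a binding protein of insulin-like growth factors (2.39 ± 0.30, limma adjusted p = 0.00148), and besides it P4ha1, P4ha2 and Bhlhe40, a transcription factor gene with a mean signal of 23.97 at day 1 and 246.3 at day 3 (0.034), rose. Igfbp3 and Bhlhe40 were named after their values were seen, and both reached the filter at day 3 only, where they are high. All genes named from this list rose, and those of the list that fell are counted above but not named. In the comparison of day 3 with mesenchymal cells 13 of 14 cartilage and 8 of 10 fibroblast markers rose, and their part in these values was not tested.

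The lists that follow are read beside the same shares of all tested genes, 4.56% rising and 1.37% falling at day 1, 1.69% and 0.631% between day 1 and day 3, and 8.68% and 4.8% at day 3 against mesenchymal cells. Among 11 tested genes of pyruvate dehydrogenase and lactate carriers, Bsg was the only one called, and it rose in each comparison. Bsg encodes basigin, the partner that brings monocarboxylate transporters such as MCT4 to the cell surface. Its mean signal was 3323 in mesenchymal cells, 5512 at day 1 and 9099 at day 3, with 0.73 ± 0.16 for day 1 minus mesenchymal (limma adjusted p = 0.0183) and 0.72 ± 0.16 for day 3 minus day 1 (0.0402). Of 9 other tested genes of glycolysis and sugar entry, Slc2a4 rose at day 1 (1.28 ± 0.25, limma adjusted p = 0.0121), and Slc2a4 and Eno3 rose at day 3 against mesenchymal cells (1.21 ± 0.25 and 0.78 ± 0.23, limma adjusted p = 0.00882 and 0.0486). Of 15 tested genes of the TCA cycle, Idh2 rose and Sdhd fell at day 1 (1.05 ± 0.17 and -0.63 ± 0.15, limma adjusted p = 0.00283 and 0.0316). At day 3 against mesenchymal cells Idh2 rose while Sdhd and Suclg2 fell. Of 6 tested genes of the pentose phosphate pathway, Rpia fell at day 3 against mesenchymal cells (-0.97 ± 0.18, limma adjusted p = 0.00474), and of 6 other tested glycogen genes none passed.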

How the data were processed

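Signals were measured on 27 arrays, 9 RNA samples on 3 array types. Per the submitters' processing notes the authors used MAS5, whose deposited values are 1 intensity per probe set on a linear scale, and the deposited 2% trimmed means of 1499.6 to 1499.8 show that each array had been scaled. Here all arrays were brought to a trimmed mean of 500 and converted to log2(signal + 50), 198 control probe sets and 13150 probe sets with a mean below 200 in every group were left out, and 23551 went into limma 3.58.1 under R 4.3.3 (lmFit, eBayes with a trend), with all 9 samples of an array type in 1 fit. Benjamini-Hochberg adjustment ran over the 3 array types together. A gene was represented by 1 tested probe set, from type A before B before C, then by the highest mean. Symbols are those of GEO's platform tables, updated through Entrez identifiers to GRCm38.p6; of 36701 probe sets 29131 had 1 symbol, 724 several and 6846 none. Scan batches came from the arrays' experiment records. The members, the lists and the alternatives were chosen with earlier results of these data known. Every member is described, and of each other pathway list at most 3 genes with the smallest adjusted p. The further hypoxia-inducible genes are an exception, since Igfbp3 and Bhlhe40 were added after their values were seen. No replicate block was used. Of these steps, the limma fit and its adjusted calls were tested on simulated data with samples drawn independently.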

Additional observations from a re-analysis of the deposited data

How the results depend on the processing

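With 3 samples a group and MAS5 signals near background for many probe sets, calls rest on few samples. Of the 9 calls of members, none changed sign under 20 alternatives, and of 87 other member values 8 passed under some alternative and 36 changed sign. On array type A same-numbered day 1 and day 3 samples deviated together (r of 0.30 to 0.48, each highest with its own number). On type C r was 0.06 to 0.19, again each highest with its own number. On type B it was 0.03 to 0.21, but not each highest with its own number. Same-numbered mesenchymal samples on type A had negative r with both later groups (down to -0.50). Samples of high 18S signal also deviated together on type A despite unlike numbers. Mesenchymal replicate 1 had r of 0.37 with day 1 replicate 4 and 0.32 with day 3 replicate 4. High 18S signal lay in replicate 1 of the mesenchymal group but in replicate 4 of both later groups. These r thus cannot decide whether mesenchymal samples are paired with later ones. On types B and C, same-numbered mesenchymal r was negative for replicates 1 and 4. For replicate 3 it was 0.03 and 0.10 on type B and 0.09 and 0.08 on type C (day 1 and day 3). The day 1 and day 3 samples with r of 0.48 on type A both had high 18S signal. Whether the numbers pair any samples was not tested. With the replicate block 911, 258 and 1999 probe sets were called, and the calls of Aldoa, Pgk1, Ldhb between day 1 and day 3 and Ndrg1 were lost (limma adjusted p = 0.0676, 0.0565, 0.0666 and 0.0892). The number of probe sets called was 1129, 380 and 2492 for day 1 minus mesenchymal, day 3 minus day 1 and day 3 minus mesenchymal. With the scan batch as a block the first and last were 615 and 1141, and leaving out 1 sample gave 555 to 1243, 167 to 438 and 1477 to 2561. Median scaling shifted the median of all genes by 0.12 in both comparisons with mesenchymal cells, and made 87.8%, 83.1% and 80.5% of called genes higher, against 76.9%, 72.8% and 64.4%. The count of members that fell at day 1 went from 2 to 3 with quantile normalization or all probe sets counted, to 1 with no filter, median scaling, the scan block, the replicate block and eBayes without a trend, and to 0 without the 3 samples of high 18S signal (1 to 2 leaving out 1 sample). The count that rose at day 1 went from 1 to 0 with the scan block (1 to 2 leaving out 1 sample). Between day 1 and day 3 the 1 fall was 0 with median scaling, both blocks, without the 3 samples and without a trend (0 to 1 leaving out 1 sample). The 4 rises were 0 with median scaling, without the 3 samples and without a trend, and 2 with either block, Ldha and Slc16a3 (0 to 4 leaving out 1 sample). For Slc16a3 the scan block is no test, since on type B it cannot separate scan batch from day 3. Between mesenchymal cells and day 3 the count of falls went from 0 to 1 with a minimum signal of 400 or with all probe sets counted (0 to 1 leaving out 1 sample). The 1 rise was 2 with a pseudocount of 200, a minimum of 400, quantile normalization or without the 3 samples, and 0 with no filter, the scan block or without a trend (0 to 4 leaving out 1 sample). The causes were not tested.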
